A study of Mus musculus with 17 samples.

Results

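The genes described here are 10 components of the junctions that hold epithelial cells together: the claudins Cldn1, Cldn2, Cldn3, Cldn4, Cldn7 and Cldn18, occludin (Ocln), the scaffold ZO-1 (Tjp1), junctional adhesion molecule A (F11r) and E-cadherin (Cdh1). They were chosen by name, as 10 of the 43430 gene IDs in each deposited count table, and every one was found in both tables. The RNA came from sorted AT2 cells (alveolar epithelial type 2 cells, which make lung surfactant) of C57BL/6J mice aged 2 months. In a poly(A) set made from 3 ng of RNA, 4 libraries came from uninjured mice given vehicle and 4 from uninjured mice given ISRIB, a compound that acts on the translation factor eIF2B, with cells taken 24 h later. In a total-RNA set made from 0.35 ng of RNA, there were 4 libraries of naive mice and 5 of mice that had received bleomycin, a drug used to injure the mouse lung, 14 days earlier. The label of all 9 total-RNA libraries gives vehicle as the treatment, and their titles also say saline. The labels name no transgene, no sorting gate and no dose, and they do not say whether animals were pooled. Nothing in them says that the libraries of a group came from separate animals, so the p-values below measure the spread between these libraries, which may be technical.

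Tight junctions are belts near the top of epithelial cells where strands of claudins in neighbouring membranes meet and limit what passes between the cells. Some claudins seal these strands, and others, such as Cldn2, form pores for small ions, so the mixture of claudins sets the leakiness of an epithelium. In the alveolus the seal keeps fluid out of the air space, and Cldn3, Cldn4 and Cldn18 are the claudins best known there. Ocln and F11r share the strands or lie beside them, ZO-1 ties them to actin, and E-cadherin holds the cells together below them in the adherens junction.

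Total counts ran from 10493574 to 15727139 per poly(A) library and from 3295257 to 6333166 per total-RNA library, and the 10 genes together took 37072 to 53839 and 5318 to 14012 of them. The biological coefficient of variation was 7.66% for ISRIB and vehicle and 21.1% for bleomycin and naive libraries, so small changes were harder to detect after bleomycin. Levels are given as CPM, counts scaled to a library size of 10 to the power 6, of the tested genes after scaling. A gene was called changed when edgeR's quasi-likelihood test gave a Benjamini-Hochberg adjusted p under 0.05 over all genes that passed a filter on low counts. The AT2 marker genes, led by Sftpc, summed to 83640 to 91140 CPM in naive libraries and 51940 to 91720 CPM after bleomycin. Of these 10 genes, 2 were called higher after bleomycin and 1 lower, beside 11.2% and 9.31% of all genes tested. Sftpd (log2 fold change 0.58, edgeR adjusted p 0.0133) and Napsa (0.40, 0.0425) were higher, and Etv5 (-0.43, 0.0199) was lower. T cell and B cell markers were near 0 throughout, and macrophage markers summed to 5.96 to 11.6 CPM after bleomycin and 6.62 to 11.1 CPM in naive libraries, with Marco and C1qa at 0. Bleomycin 4 stood apart from the other bleomycin libraries on the second principal component (58.9 against -25.3 to -7.91) and had the fewest genes detected, 13940. Fewer genes were detected across the bleomycin libraries, 13940 to 17112, than in the naive ones, 17108 to 19763. The part of this difference in the changes below was not tested.

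The sequences that lie just before the starts of 3 claudin genes are shown because these genes carry the results below: Cldn4 changed most after bleomycin, Cldn3 lies near it on chromosome 5, and Cldn18 has several annotated starts, of which 2 have a window in the RefSeq table. Each is 250 bases long, written 5′ to 3′ on the strand of the gene, and ends at the base before the start site, from RefSeq on GRCm38.p6. Cldn4 lies on the minus strand (chr5:134946935-134947184), Cldn3 on the plus strand (chr5:134985964-134986213), and the Cldn18 windows on the minus strand (chr9:99717268-99717517, then chr9:99710064-99710313). Capitals mark every match, on either strand, to 6 short motifs. These were the GC box bound by Sp-family factors, with the letters GGGCGG, and the site of the stress-responsive AP-1 factors, TGANTCA. The others were the site of the epithelial grainyhead factors, AACCNGTT, that of the TEAD partners of YAP, written CATTCC, the E-box bound by the repressor Snail, CACCTG, and the TATA box that can place a start site, TATAAA. No motif overlaps another in these windows.
Cldn4: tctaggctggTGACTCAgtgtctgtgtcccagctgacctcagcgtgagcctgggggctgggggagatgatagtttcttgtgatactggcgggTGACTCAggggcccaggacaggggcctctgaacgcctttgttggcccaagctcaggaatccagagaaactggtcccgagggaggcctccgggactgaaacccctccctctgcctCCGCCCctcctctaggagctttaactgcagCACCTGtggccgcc
Cldn3: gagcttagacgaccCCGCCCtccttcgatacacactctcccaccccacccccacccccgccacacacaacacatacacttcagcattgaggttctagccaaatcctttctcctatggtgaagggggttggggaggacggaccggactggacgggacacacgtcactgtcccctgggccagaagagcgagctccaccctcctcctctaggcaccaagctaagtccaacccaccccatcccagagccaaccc
Cldn18, first start: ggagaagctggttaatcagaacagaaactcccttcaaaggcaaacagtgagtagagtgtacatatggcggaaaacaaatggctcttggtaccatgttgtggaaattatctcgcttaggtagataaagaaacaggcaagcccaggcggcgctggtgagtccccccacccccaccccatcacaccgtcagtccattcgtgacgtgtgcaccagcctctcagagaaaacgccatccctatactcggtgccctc
Cldn18, second start: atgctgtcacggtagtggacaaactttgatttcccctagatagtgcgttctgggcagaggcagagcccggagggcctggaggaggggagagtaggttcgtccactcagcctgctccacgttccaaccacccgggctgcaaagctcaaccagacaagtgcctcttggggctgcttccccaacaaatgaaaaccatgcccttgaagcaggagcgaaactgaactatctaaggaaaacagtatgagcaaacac

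The Cldn4 window held 2 matches to the AP-1 letters, both TGACTCA, at 240 to 234 and 158 to 152 bases before the start site. At least 1 match stood in 6.75% of the 32851 windows of the same length in the RefSeq table, and 2 or more matches in 0.338%. The same window held 1 GC box at 44 to 39 bases, letters found in 32.7% of windows, and 1 Snail E-box at 14 to 9 bases, letters found in 17.2%. The Cldn3 window held 1 GC box at 236 to 231 bases and no match to the other letters. Neither Cldn18 window held any of the 6 motifs, which says only that these letters are not in these windows. The starts of the 2 Cldn18 windows lie 7204 bp apart, the first opening the transcripts Cldn18-202 and Cldn18-203 and the second opening Cldn18-201, while Cldn18-204 is annotated from a start of its own at chr9:99710009, just inside that of Cldn18-201. Cldn18 is known to use different first exons in lung and stomach, and a count per gene cannot tell these transcripts apart. Windows were found for 9 of the 10 genes, 12 windows in all, and F11r was the only gene besides Cldn4 with an AP-1 match, TGAGTCA at 109 to 103 bases. Whether any factor binds these letters in AT2 cells, or has a part in the levels of these genes, was not tested.

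Among genes, levels were compared as CPM per kilobase of exon, within 1 kit at a time. In vehicle-treated AT2 cells Cldn3 led with 430.1 ± 17.2 CPM per kb (SD, n = 4), ahead of Cldn18 with 307.9 ± 10.8 and Cdh1 with 244.3 ± 4.98. F11r followed with 70.2 ± 1.77, Cldn7 with 62.3 ± 3.11, Tjp1 with 21.5 ± 1.54 and Ocln with 12.9 ± 0.60 CPM per kb. Cldn4, at 1.59 ± 0.43 CPM per kb, stood far below the other alveolar claudins. Neighbours in this order did not overlap in the ranges of their libraries, except Cldn2 and Cldn1 at the bottom, with 0.074 and 0.018 CPM per kb. With the length of the longest transcript in place of all exons, F11r and Cldn7 changed places.

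In the naive total-RNA libraries Cdh1 came first with 160.0 ± 9.50 CPM per kb (SD, n = 4), and Cldn3 with 124.7 ± 7.91 and Cldn18 with 111.9 ± 7.61 overlapped in their ranges. Tjp1 with 32.4 ± 0.77 and F11r with 30.0 ± 1.66 CPM per kb overlapped too. Cldn7 with 17.0 ± 2.62, Ocln with 9.85 ± 0.65 and Cldn4 with 0.29 ± 0.14 CPM per kb followed in that order without overlap. Cldn2 and Cldn1 again lay at the bottom, with 0.048 and 0.035 CPM per kb and overlapping ranges. The kits differ in RNA input and depth as well as in the RNA they capture, so the orders of the 2 sets were not tested against each other.

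**Figure D1:**
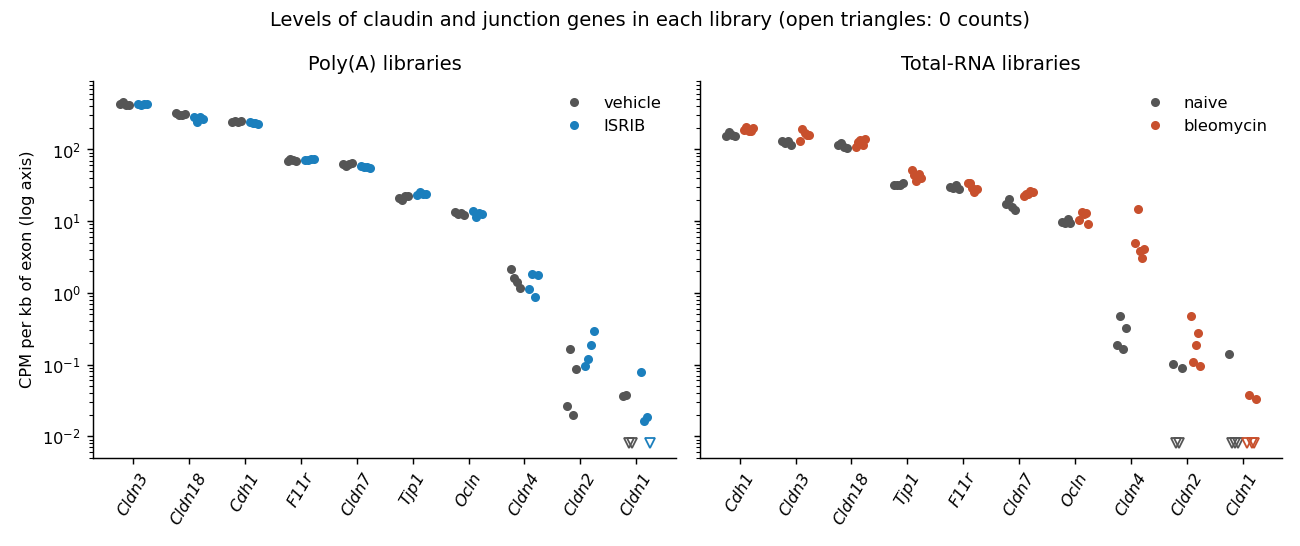
Level of each gene in CPM per kilobase of exon on a log axis, with 1 point per library and open triangles for libraries with 0 counts, for the poly(A) libraries (left) and the total-RNA libraries (right). Cldn3, Cldn18 and Cdh1 led in both sets, and Cldn4 separated the bleomycin libraries from the naive ones.

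Within the summed level of the 6 claudins, Cldn3 and Cldn18 together made up most of the mixture in every library. Cldn3 took 52.1 to 55.9% in vehicle and 55.4 to 57.7% in ISRIB libraries, and 46.6 to 51.7% in naive and 48.4 to 53.6% in bleomycin libraries. Cldn18 took 36.8 to 39.5% in vehicle, 33.9 to 37.0% in ISRIB, 42.0 to 45.6% in naive and 35.4 to 42.6% in bleomycin libraries. Cldn7 held 6.10 to 8.78% in every group. The share of Cldn4 was 0.065 to 0.176% in naive libraries and 1.01 to 4.13% after bleomycin, so these groups did not overlap, while it was 0.147 to 0.266% with vehicle and 0.115 to 0.254% with ISRIB. These shares are descriptions with no test.

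**Figure D2:**
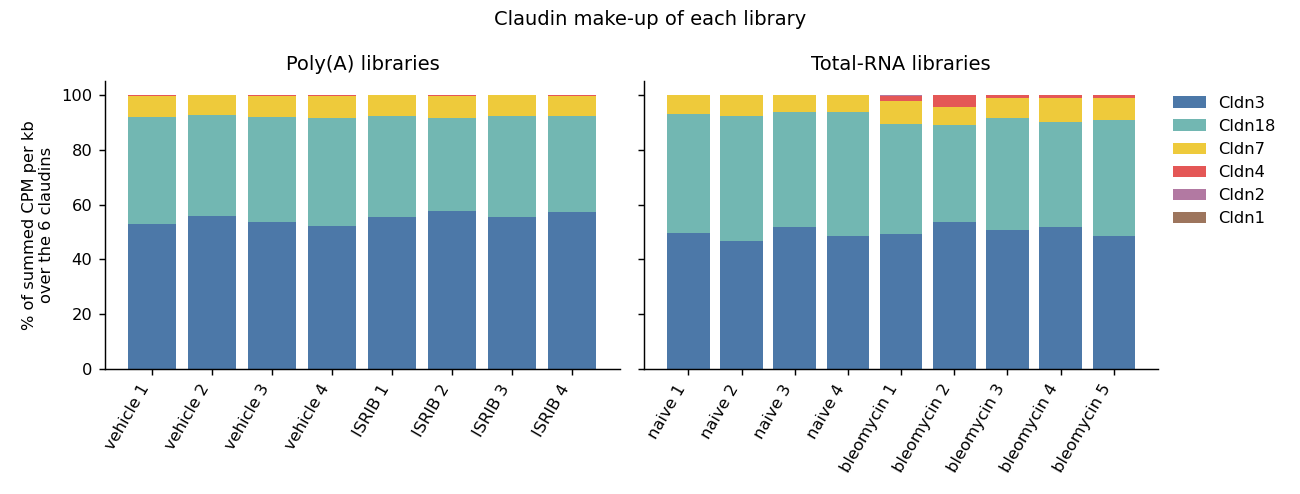
Share of each of the 6 claudins in their summed CPM per kilobase, in percent, with 1 stacked bar per library of each group. Cldn3 and Cldn18 filled most of every bar, and the Cldn4 share was at most 0.176% in naive and 1.01% or more in bleomycin libraries.

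At 14 days after bleomycin, 4 of the 8 junction genes that passed the filter had risen: Cldn4, Cldn7, Cldn3 and Tjp1. None had fallen. Among all 11223 genes tested, 20.5% were called, 11.2% as higher and 9.31% as lower. All 8 lay above 0, as did 50.2% of all genes, with a median log2 fold change of 0.32, beside 0.0026 over all genes tested, and in 4 of the 8 (Cldn4, Cldn7, Tjp1 and Cdh1) the groups did not overlap, as for 19.7% of all genes. Cldn1 and Cldn2 did not pass the filter. Cldn4, with at most 4 counts in a naive library, passed it only through the bleomycin libraries. Its place among the 8 and its rise are therefore tied together. In sorted cells that are sequenced in bulk, fewer cells of a type and less RNA per cell cannot be told apart. Since the genes were chosen with earlier results known, these counts describe the list and do not test it.

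Cldn4 (ENSMUSG00000047501, chr5:134945119-134946934, minus strand), a sealing claudin that binds the same bacterial toxin as Cldn3, changed most. The naive libraries held 1, 4, 1 and 2 counts (0.335, 0.855, 0.300 and 0.596 CPM), and the bleomycin libraries 34, 148, 45, 18 and 47 counts (8.99, 26.7, 6.97, 5.57 and 7.44 CPM). All bleomycin values exceeded all naive values, and bleomycin 2 was the highest by far. The edgeR log2 fold change was 4.35 (SE 0.62, adjusted p 7.91e-05), from 0.52 ± 0.26 CPM (SD, n = 4) to 11.1 ± 8.79 CPM (SD, n = 5). With so few naive counts the ratio of summed counts is uncertain, at 20.7 with a 95% interval of 10.4 to 48.4, which covers counting error only. Without bleomycin 2 the ratio was 13.1 (6.45 to 30.8) and the log2 fold change 3.73 with adjusted p 0.000635. The gene remained called in all 16 alternative analyses, with log2 fold changes of 3.73 to 4.77.

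Cldn3 (ENSMUSG00000070473, chr5:134986214-134987472, plus strand) lies 39280 bp from Cldn4. Its naive libraries held 162.7, 156.8, 165.4 and 143.1 CPM and its bleomycin libraries 164.5, 240.2, 215.9, 198.3 and 200.0 CPM. The value of bleomycin 1 lay inside the naive range, and the other 4 lay above it. The log2 fold change was 0.38 (SE 0.12, edgeR adjusted p 0.0306). This call was lost when trends with GC content and length were removed (log2 fold change 0.13, adjusted p 0.396), and it was lost when any naive library, bleomycin 2 or bleomycin 3 was left out, with adjusted p of 0.0553 to 0.12. The GC content of the longest Cldn3 transcript was 62.7%, higher than that of 99.2% of the genes tested. Cldn3 also shares 40 bases, 3.18% of its exons, with Wbscr25 on the other strand, and whether the counting used strand is not known from the labels, so reads of the 2 genes cannot be told apart there.

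Cldn7 (ENSMUSG00000018569, chr11:69964779-69967885, plus strand), a claudin found along the sides of epithelial cells as well as in their tight junctions, held 33.9, 39.7, 30.9 and 27.7 CPM in the naive libraries and 44.2, 46.9, 46.5, 52.0 and 49.6 CPM after bleomycin. The groups did not overlap. Its log2 fold change was 0.53 (SE 0.14, edgeR adjusted p 0.0127), from 33.1 ± 5.11 (SD, n = 4) to 47.8 ± 3.01 CPM (SD, n = 5). Without naive 4 the adjusted p was 0.065.

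Cldn18 (ENSMUSG00000032473, chr9:99689461-99717267, minus strand), the claudin most typical of lung alveoli and stomach, was not called. It held 506.5, 542.9, 475.9 and 468.5 CPM in naive libraries and 477.7, 562.1, 611.8, 518.9 and 623.8 CPM after bleomycin, with 3 of the 5 bleomycin libraries above every naive library. The log2 fold change was 0.17 (SE 0.11, edgeR adjusted p 0.338). Cldn2 (ENSMUSG00000047230, chrX:139800828-139811386, plus strand), the pore-forming claudin, had 1, 0, 0 and 1 counts in naive and 6, 2, 4, 3 and 2 counts in bleomycin libraries. The sums of 2 and 17 gave a depth-adjusted ratio of 4.82 with an interval of 1.14 to 43.0, and with no filter edgeR gave an adjusted p of 0.341. Cldn1 (ENSMUSG00000022512, chr16:26356642-26371841, minus strand), a claudin of the skin barrier and many epithelia, had 2 counts in each group in all, too few for a fold.

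**Figure D3:**
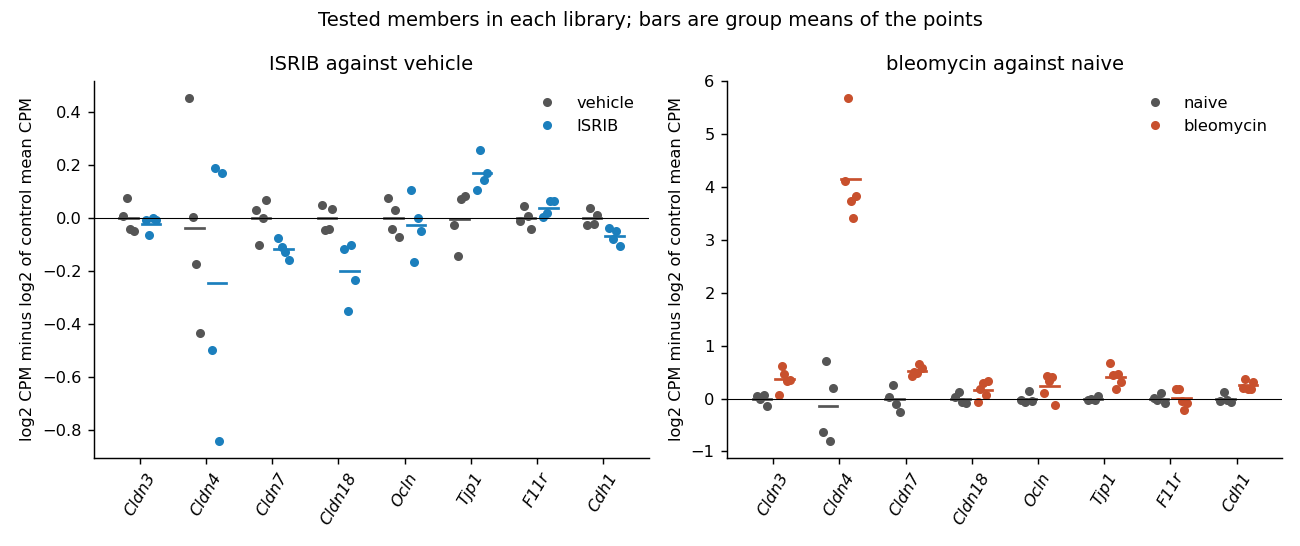
Log2 CPM of each of the 8 tested genes in every library (points), relative to the log2 of the control group's mean CPM, with bars at the group means, for ISRIB and vehicle (left) and bleomycin and naive (right, on a wider scale). After bleomycin Cldn4, Cldn7, Tjp1 and Cdh1 separated from naive without overlap, and with ISRIB the separations were small, as for Cldn18 at 1077 to 1277 CPM against 1329 to 1421.

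Tjp1 (ENSMUSG00000030516, chr7:65296165-65527781, minus strand), which encodes the scaffold ZO-1, held 249.2, 252.5, 249.2 and 262.0 CPM in the naive libraries and 402.6, 343.6, 285.4, 349.6 and 315.6 CPM after bleomycin. All 5 bleomycin libraries lay above all 4 naive libraries, and bleomycin 1 was highest. Its log2 fold change was 0.42 (SE 0.12, edgeR adjusted p 0.0138), and the call held in all 16 alternatives, with adjusted p of at most 0.0491. Cdh1 (ENSMUSG00000000303, chr8:106603351-106670246, plus strand) held 709.1, 795.9, 722.1 and 701.0 CPM in naive and 845.9, 947.9, 827.1, 832.9 and 909.0 CPM in bleomycin libraries. The groups did not overlap, yet edgeR gave a log2 fold change of 0.25 (SE 0.11) and an adjusted p of 0.106. DESeq2 called Cdh1, with an adjusted p of 0.0177.

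Ocln (ENSMUSG00000021638, chr13:100496507-100552718, minus strand) held 41.6 ± 2.76 CPM in naive (SD, n = 4) and 49.3 ± 7.79 CPM in bleomycin libraries (SD, n = 5), and the groups overlapped. The log2 fold change was 0.24 (SE 0.14, edgeR adjusted p 0.255). F11r (ENSMUSG00000038235, chr1:171437535-171464603, plus strand) held 79.9 ± 4.43 and 80.5 ± 10.1 CPM. Its log2 fold change of 0.01 (SE 0.12, edgeR adjusted p 0.955) was the smallest among the 8, and it took either sign across the alternatives, from -0.07 to 0.07.

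In uninjured mice 24 h after ISRIB, none of the 8 tested junction genes was called by edgeR, while 2.20% of the 12054 genes tested were. At an unadjusted p under 0.05 there were 3 (Cldn7, Cldn18 and Tjp1), beside 1934 of the 12054 genes. DESeq2 called 1 of the 8, Cldn18, as did edgeR with no filter on low counts, and limma-voom called 0. The groups did not overlap for 3 of the 8 (Cldn18, Tjp1 and Cdh1), beside 8.65% of all genes. The median log2 fold change of the 8 was -0.05, and 2 lay above 0, beside 50.0% of all genes.

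Cldn18 held 1421, 1329, 1332 and 1406 CPM in the vehicle libraries and 1265, 1077, 1277 and 1166 CPM in the ISRIB libraries. Every ISRIB library lay below every vehicle library. The log2 fold change was -0.20 (SE 0.06, edgeR adjusted p 0.0953), with an adjusted p of 0.0282 from DESeq2 and 0.02 with no filter. Tjp1 moved the other way, with 164.5, 151.9, 176.1 and 177.7 CPM with vehicle and 180.3, 200.1, 185.3 and 188.7 CPM with ISRIB. Its log2 fold change was 0.17 (SE 0.06, edgeR adjusted p 0.15), and the groups did not overlap. Cdh1 held 1097, 1146, 1101 and 1126 CPM with vehicle and 1090, 1057, 1081 and 1039 CPM with ISRIB, each ISRIB library below each vehicle library. The difference was small, at a log2 fold change of -0.07 (SE 0.05, edgeR adjusted p 0.529).

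The other tested claudins of the 10, Cldn7, Cldn3 and Cldn4, differed little between vehicle and ISRIB. Cldn7 held 121.3 ± 6.05 CPM with vehicle and 111.8 ± 2.62 CPM with ISRIB (SD, n = 4 each), with overlapping groups, a log2 fold change of -0.12 (SE 0.05) and an edgeR adjusted p of 0.284. Cldn3 held 541.5 ± 21.7 and 533.8 ± 10.5 CPM, with a log2 fold change of -0.02 (SE 0.05, edgeR adjusted p 0.895). Cldn4 had 45, 32, 39 and 22 counts with vehicle and 32, 41, 18 and 37 with ISRIB, with a log2 fold change of -0.18 (SE 0.27, edgeR adjusted p 0.812). Ocln at -0.02 (SE 0.07, edgeR adjusted p 0.918) and F11r at 0.04 (SE 0.05, edgeR adjusted p 0.777) on the log2 scale also overlapped between the groups.

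Cldn2 and Cldn1 stayed below the filter in this set too. Cldn2 had 1, 6, 1 and 3 counts with vehicle and 5, 5, 7 and 11 with ISRIB, a ratio of the summed counts of 2.41 with a counting interval of 1.16 to 5.36. The groups overlapped, since 1 vehicle library had more counts than 2 ISRIB libraries, and with no filter edgeR gave an adjusted p of 0.474. Cldn1 had 4 counts in all with vehicle and 8 with ISRIB.

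Other junction genes were taken from lists, with the same fit, and their counts stand beside the 20.5% of all genes called after bleomycin (11.2% higher and 9.31% lower). After bleomycin, none of the 2 tested genes among 23 other claudins and claudin-domain genes (Cldn12 and Cldnd1) was called. Cldn8 did not pass the filter but held 0.77 CPM in naive and 3.24 CPM in bleomycin libraries, with ranges of 0 to 1.34 and 1.86 to 4.33. Cldn34c1, also below the filter, went the other way, with 0.335 to 0.901 CPM in naive and 0 in bleomycin libraries. Of 6 tested tight junction membrane genes besides the 10, 1 rose: Cxadr, the receptor of coxsackie and adenoviruses, at a log2 fold change of 0.77 (SE 0.15, edgeR adjusted p 0.00165). Of 20 tested scaffold and polarity genes, 3 rose and 2 fell, with a median log2 fold change of 0.13, a share of calls close to that of all genes. The risers were Shroom3, a regulator of apical constriction (0.77, edgeR adjusted p 2.89e-04), Cgn, the plaque protein cingulin (0.52, 0.0185), and Pard6b (0.53, 0.0235). The 2 that fell were the scaffold Magi1, with a log2 fold change of -0.51 and an edgeR adjusted p of 0.0101, and the polarity gene Pard3, with -0.44 and 0.0236.

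Below the tight junction, 3 of 15 tested adherens junction genes rose after bleomycin and none fell, again a share of calls close to the 20.5% of all genes. These were Jup, which encodes plakoglobin (log2 fold change 0.40, edgeR adjusted p 0.0131), the adhesion molecule Nectin2 (0.41, 0.0213) and Plekha7 (0.61, 0.0407). In desmosomes, 2 of 8 tested genes rose, the cadherin Dsg2 (0.87, edgeR adjusted p 0.00316) and envoplakin, Evpl (1.04, 0.00796), while periplakin, Ppl, fell by 0.42 on the log2 scale (0.0235). Of the gap junction genes, Gja1, which encodes connexin 43, went from 221.8 ± 4.62 to 507.7 ± 51.3 CPM with a log2 fold change of 1.20 (SE 0.11, edgeR adjusted p 9.95e-07), and its groups did not overlap. Of 15 tested regulators, Ehf, an epithelial ETS factor, fell by 0.52 on the log2 scale (edgeR adjusted p 0.00586) and St14, a membrane protease, rose by 0.46 (0.00757). With 1 library left out, the calls of Cxadr, Shroom3, Dsg2, Evpl, Gja1, Ehf and St14 held in all 9 runs. The other calls did not hold in every run. Magi1 lost its call without naive 4, Jup without naive 3 or 4, Cgn without naive 1 or 3, and Nectin2 without naive 1, 3 or 4. Ppl lost it without naive 1, naive 4 or bleomycin 3, Pard3 without naive 2, 3 or 4 or bleomycin 5, and Pard6b without naive 1, 2 or 3 or bleomycin 2. Plekha7 lost it when any naive library, bleomycin 1 or bleomycin 4 was left out. The adjusted p in these runs was 0.0508 (Magi1) to 0.0997 (Plekha7). Among the bleomycin libraries, bleomycin 4, the one that stood apart, was the highest for Cxadr, Cgn, Pard6b, Shroom3, Jup and Nectin2, and for the summed tight junction membrane (489.5 CPM) and scaffold genes (3444 CPM). It was also the highest of them for Pard3 (221.2 CPM) and Ppl (392.6 CPM), which were called lower. Its Ppl value lay inside the naive range of 373.2 to 439.6 CPM. Without bleomycin 4 the 6 genes called higher were still called, with log2 fold changes of 0.32 (Nectin2) to 0.70 (Shroom3). Parts of Shroom3 (24.9% of its exons), Cxadr (9.39%), Dsg2 (3.99%) and Nectin2 (3.86%) are shared with genes on the other strand, and their counts are uncertain to that extent.

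**Figure D4:**
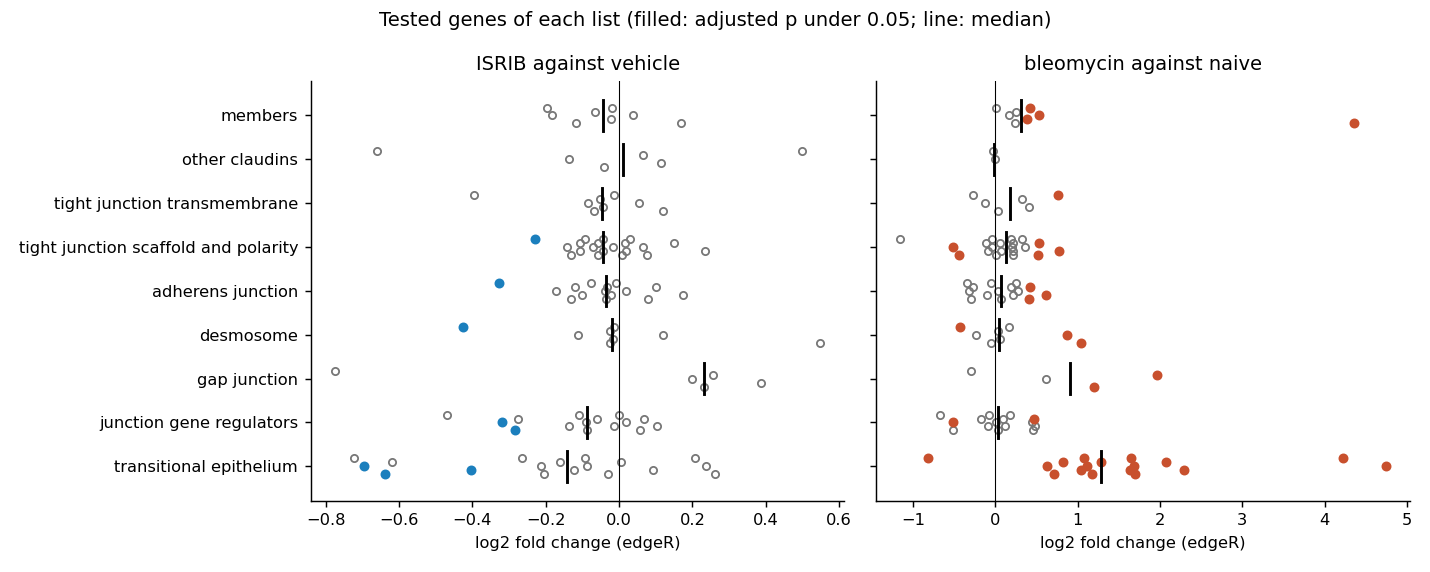
Log2 fold change (edgeR) of each tested gene (points) and the median (line) of the 8 tested junction genes, of each list of other junction genes and of the transitional genes described next, for bleomycin against naive and ISRIB against vehicle, with called genes filled. Calls went in both directions after bleomycin. With ISRIB the few called genes of these lists were lower, beside 133 higher and 132 lower over all genes tested.

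With ISRIB, the calls in these lists were few and all lower. They were 1 of 20 tested scaffold and polarity genes, 1 of 15 adherens junction genes, 1 of 8 desmosome genes and 2 of 15 regulators. Over all 12054 genes tested 2.20% were called, 133 higher and 132 lower. So few calls describe the lists and do not test their direction. Arhgef2, a RhoA activator that docks at tight junctions, had a log2 fold change of -0.23 (SE 0.05, edgeR adjusted p 0.0305), from 161.6 ± 5.22 to 137.9 ± 6.82 CPM (SD, n = 4 each). Nectin4 fell by 0.33 (edgeR adjusted p 0.0396), and Perp, a desmosomal membrane protein, by 0.43 (0.0271) on the log2 scale. Among regulators, Ehf fell by 0.32 (edgeR adjusted p 0.00961) and the related factor Elf3 by 0.28 (0.0208). Of these 5 genes Ehf alone stayed called in all 8 runs with 1 library left out, with an adjusted p of at most 0.0433. Arhgef2 and Nectin4 lost their calls in 6 of the 8 runs, all but those without vehicle 4 or ISRIB 1, with adjusted p of up to 0.105 and 0.13. Perp lost it without vehicle 1, 2 or 4 or ISRIB 2 or 4 (up to 0.1), and Elf3 without vehicle 2 or ISRIB 2, 3 or 4 (up to 0.0775). Elf3 shares 7.31% of its exons with a gene on the other strand. The other claudins, other tight junction membrane genes and gap junction genes had no calls. Of 6 tested other claudins and claudin-domain genes, Cldn8 was higher without overlap (4.14 and 5.89 CPM, log2 fold change 0.50, edgeR adjusted p 0.152). Cldn23 (3.45 and 2.16 CPM, -0.66, 0.129) and Cldnd1 (52.3 and 47.6 CPM, -0.14, 0.279) were lower without overlap. Over all genes 8.65% did not overlap.

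Genes of a transitional epithelial state, a state of AT2 cells on the way to type 1 cells after injury, were counted beside Cldn4. With a median log2 fold change of 1.29, 16 of 17 tested rose after bleomycin and 1 fell (Nupr1), beside 11.2% and 9.31% of all genes. The 6 with the lowest p were Cdkn1a (2.29), Krt19 (1.63), Hbegf (2.07), Krt8 (1.12), Anxa1 (1.68) and Krt7 (1.29), on the log2 scale, all with an edgeR adjusted p of at most 1.40e-05. Of the 17, Ccn2 held 0.335 to 0.641 CPM in naive libraries, Fn1 1.28 to 3.30 CPM and Tnip3 2.01 to 3.63 CPM. These genes passed the filter through the bleomycin libraries, so their direction is no separate result. In the ISRIB comparison 3 of 18 were called, beside 2.20% of all genes, and all 3 were lower: Krt19 at -0.40, Hbegf at -0.64 and Sprr1a at -0.70. Sprr1a lost its call without vehicle 1, 2 or 3 or ISRIB 1 (adjusted p up to 0.0823), and Krt19 without vehicle 1 or ISRIB 3 (up to 0.0607). Across the 9 total-RNA libraries, the genes whose centred log2 CPM lay nearest to that of Cldn4 were Ccn2, Kif1a and Hist1h1a. Because values were centred over both groups, this search mostly returns genes with a group difference like that of Cldn4, here log2 fold changes of 4.22, 3.77 and 4.31 beside 4.35. Ccn2 reached the minimum mean of 5 CPM only through the bleomycin libraries (0.54 CPM in naive, 10.3 CPM after bleomycin). Ccn2 belongs to the transitional list itself. Ccn2 (23.2% of its exons), Cdkn1a (7.68%) and Krt8 (5.16%) share bases with genes on the other strand. For Cldn18, the nearest genes by the same measure were Dnaja3, Gfpt1 and Ppib and, over the 8 poly(A) libraries, Taf6, Pls3 and S100a10.

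**Figure D5:**
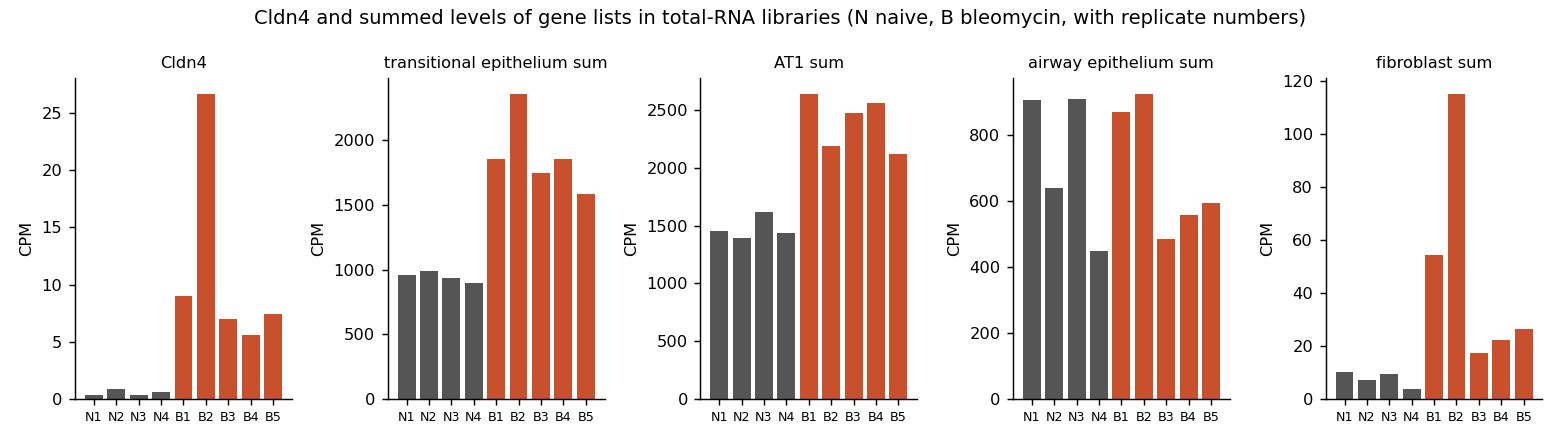
CPM of Cldn4 and summed CPM of the transitional, AT1, airway and fibroblast lists, with 1 bar per total-RNA library (N naive, B bleomycin). Bleomycin 2 was highest for Cldn4 (26.7 CPM) and for the transitional (2362 CPM), airway (924.8 CPM) and fibroblast (115.3 CPM) sums.

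Markers of other cell types moved beside these genes after bleomycin. Of 9 tested AT1 markers 7 rose, beside 11.2% of all genes called higher. Pdpn, 1 of the 7, held 0.335 to 2.38 CPM in naive and 11.5 to 26.5 CPM in bleomycin libraries. It passed the filter through the bleomycin libraries, so its direction is no separate result. The AT1 sum was 1396 to 1621 CPM in naive and 2126 to 2645 CPM in bleomycin libraries. Endothelial markers summed to 80.8 to 84.9 and 103.7 to 169.4 CPM with 3 of 7 higher (Cdh5, Vwf and Esam). Most of this sum was Esam, at means of 52.13 and 83.05 CPM. Cdh5, at 1.19 to 5.37 CPM in naive and 5.56 to 14.3 CPM in bleomycin libraries, also passed the filter through the bleomycin libraries. Pecam1, Kdr, Egfl7 and Tek were tested and not called, Tek with a log2 fold change of -0.27. The endothelial claudin Cldn5, not tested, was at 1.07 and 1.81 CPM. Fibroblast markers summed to 3.88 to 10.1 and 17.5 to 115.3 CPM, and the 3 tested (Col1a1, Col1a2 and Col3a1) were called higher. Their naive means were 1.35, 1.25 and 2.93 CPM, and they passed the filter through the bleomycin libraries, so their direction is no separate result. Of the untested, Dcn was at 0.05 and 1.81 CPM, Pdgfra at 0.93 and 1.00, Pdgfrb at 0.90 and 1.16, and Tcf21 at 0.15 and 0. Lum was at 0 in every total-RNA library. Airway markers led by Scgb1a1 summed to 449.2 to 907.7 and 485.2 to 924.8 CPM, with Foxj1 alone of 5 called higher. Foxj1 too passed the filter through the bleomycin libraries, with 2.09 to 4.36 CPM in naive and 7.12 to 38.6 CPM after bleomycin. Mesothelial markers summed to 0.298 to 5.34 and 3.44 to 20.6 CPM, and neutrophil markers stayed at or below 1.81 CPM. The part of these markers in the changes of the junction genes was not tested. With ISRIB the airway sum was 2378 to 4205 CPM beside 3852 to 4290 CPM with vehicle, the AT1 sum was 2519 to 2743 beside 2673 to 2855 CPM, and no airway or AT1 marker was called. Of 10 AT2 markers 1 was called with ISRIB, beside 2.20% of all genes: Etv5, lower by a log2 fold change of -0.28 (edgeR adjusted p 0.00817). The AT2 sum was lowest in ISRIB 2 (184100 CPM) and ISRIB 4 (187000 CPM), which also had the lowest Cldn18, and 191000 to 195500 CPM in the other poly(A) libraries. The part of these in the ISRIB values of Cldn18 was not tested either.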

How the data were processed

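Raw read counts per gene were deposited by the authors as 1 table per library kit, as the values themselves show: all are whole, and no library has the total of another. Per the submitters' processing notes, bcl2fastq 2.19.1, FastQC, Trimmomatic 0.36, STAR 2.6.0, HTSeq 0.11.2 and the mm10 build were used, and the annotation and strand setting of the counting were not found in the labels. How reads that match several claudins were treated was not found either. Per the labels' protocols, the poly(A) libraries were made with a NEBNext Ultra kit and the total-RNA libraries with a SMARTer stranded kit.

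Gene symbols, positions and exon lengths were taken by gene ID from GENCODE M21 on GRCm38, and 42462 of the 43430 IDs had a symbol. ISRIB was compared with vehicle and bleomycin with naive, each within its kit. In edgeR 4.0.16 (R 4.3.3), filterByExpr removed low genes (count minimum 10, total minimum 15), TMM set the scaling, and a two-sided quasi-likelihood F test compared the groups without further terms. Each SE equals the unshrunk log2 fold change over the square root of its F. Ratios of summed counts have exact 95% intervals for counting error only. DESeq2 1.42.0, limma-voom (limma 3.58.1), other scaling factors, no filter, the replicate number as a block and leaving out each library were tried as alternatives. Library pairs within a group differed by more than sampling noise (chi-square per degree of freedom 3.50 to 46.2), so none was merged. The procedure was tested on simulated counts. For bleomycin and naive libraries it recovered 8 of 97 genes with a true log2 change of 0.5, and 51 of 92 at 1. For ISRIB and vehicle libraries it recovered 60 of 100 and 88 of 98. A change as small as those of Cldn18, Ocln and Cdh1 after bleomycin would thus mostly be missed. False calls were 3.28% of the simulated bleomycin calls and 6.33% of the simulated ISRIB calls.

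The 10 genes and the gene lists were chosen with earlier results of these data known. All 10 genes are reported, with every other junction or transitional gene that was called, or the 6 with the lowest p where more than 6 of a list were, and the 3 genes nearest to Cldn4 and Cldn18 among those with at least 5 CPM. A gene that this rule names is not reported here. Cldn8, Cldn23, Cldn34c1 and Cldnd1 were named after their values were seen.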

Additional observations from a re-analysis of the deposited data

Results flagged for a closer look

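In 94 groups of 4 or 5 libraries, the highest and lowest library of each named gene were compared with the rest by Dixon's criterion, which chance meets in about 1 in 20 groups, and 4 groups met it. Cldn4 stood at 26.7 CPM in bleomycin 2, beside 5.57 to 8.99 CPM in the other bleomycin libraries. Anxa1, a gene of the transitional list, stood at 327.5 CPM in the same library, beside 157.5 to 197.7 CPM. Cldn3 was lowest in ISRIB 2, at 518.2 CPM beside 538.1 to 540.9 CPM. Dsg2 was highest in naive 2, at 21.8 CPM beside 17.8 to 18.0 CPM. Bleomycin 2 also had the highest sums of fibroblast (115.3 CPM), transitional (2362 CPM), airway (924.8 CPM), mesothelial (20.6 CPM) and neutrophil (1.81 CPM) genes among the total-RNA libraries, and the part of these in its Cldn4 value was not tested.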

How the results depend on the processing

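Depth limits Cldn1, Cldn2 and the naive level of Cldn4, which rest on a few counts. Over all genes, edgeR called 265 with ISRIB and 2304 after bleomycin. With ISRIB, DESeq2 called 408 genes and edgeR with no filter 648, each with 1 of the 10 genes (Cldn18) among them. Leaving out each library gave 86 (without vehicle 1) to 269 calls with ISRIB, with 102 without vehicle 2 and 159 without ISRIB 4, and 1554 to 2584 after bleomycin. Among the 10 genes these runs gave 0 calls with ISRIB and 2 (without naive 4) to 4 after bleomycin. Longest-transcript lengths changed 2 ranks in the vehicle order. F11r after bleomycin turned to -0.0022 (adjusted p 0.992) with upper-quartile factors and to -0.065 (0.742) with GC and length trends removed, 2 alternatives chosen after seeing the data, and ranged from -0.0319 to 0.068 with 1 library left out. The other sign changes with 1 library left out were in ISRIB values that were not called: Cldn4 from -0.33 to 0.00064, Ocln from -0.0692 to 0.0224 and Cldn3 from -0.0386 to 0.0056. Without the filter the median over all genes after bleomycin moved to -0.27. The cause of these shifts was not tested. Same-numbered libraries did not deviate together (correlations of -0.109 to 0.0849 with ISRIB and -0.0393 to 0.0474 after bleomycin, with 3 of 8 and 1 of 9 libraries nearest to their own number). With the replicate number as a block, 277 and 2187 genes and 0 and 3 of the 10 were called, and Cldn3 after bleomycin had an adjusted p of 0.0608.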
